A study of Mus musculus with 23 samples.

Results

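The 9 genes described here make up the core of antigen presentation by major histocompatibility complex (MHC) class I in the mouse. They were taken as a given list of symbols (H2-K1, H2-D1, B2m, Tap1, Tap2, Tapbp, Nlrc5, H2-M3 and H2-T23) and matched by Ensembl identifier, 9 of the 35825 genes in the deposited table. All 9 passed the filter on low values and were among the 17102 genes tested.

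RNA was sequenced from GFP+ microglia, the resident macrophages of the retina, sorted by flow cytometry (FACS) into 23 libraries. All mice carried the CX3CR1-GFP allele, a knock-in that places GFP at the Cx3cr1 gene. How many copies the sequenced mice carried is not given in the sources used here. WT denotes mice with intact Spp1, which encodes osteopontin, and KO denotes Spp1KO mice (B6.129S6(Cg)-Spp1tm1Blh/J), which lack the gene in every cell of the body and carry CX3CR1-GFP as well. Each genotype was sampled in control retinas, called naïve here (4 WT and 4 KO libraries). It was also sampled after elevation of intraocular pressure by microbeads injected into the anterior chamber (IOP, 4 WT and 4 KO libraries). The third condition was optic nerve crush (ONC, 3 WT and 4 KO libraries). The paper's control mice in the microbead model were injected with saline. Whether the control mice sequenced here were injected is not given in the sources used here. IOP retinas were taken after 4 weeks and ONC retinas on day 7. The paper describes pooling retinas of several mice before sorting, while a figure legend on gene expression in these microglia gives 4 mice. How many mice stand behind a library is thus not settled, and the p-values below measure the spread between libraries. GFP at Cx3cr1 also marks macrophages and monocytes other than microglia. The age of the mice is not given in the sources used here.

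MHC class I molecules display peptides from inside a cell on its surface, where CD8+ T cells and natural killer cells read them. Peptides are cut by the proteasome, pumped into the endoplasmic reticulum by the TAP transporter, and loaded onto a heavy chain paired with β2-microglobulin with the help of tapasin. Resting microglia hold few of these molecules at the surface, and interferons raise transcription of the whole set, in part through the transactivator NLRC5.

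Values are normalized counts, that is, the reads of a gene divided by a size factor of its library. The libraries held 22180480 to 30296094 reads on genes, and 3 reads, the floor of detection, correspond to 2.41 to 4.03 normalized counts. The lowest value of any member was 134. All 12 microglial marker genes looked at, among them P2ry12, Tmem119 and Csf1r, were detected, and the 11 other than Cx3cr1 together took 1.32 to 3.92% of a library. Some libraries stood apart. In KO naïve replicates 1, 2 and 4 these 11 markers took 1.32, 1.58 and 1.74% of the library, against 3.85% in KO naïve replicate 3 and 2.93 to 3.70% in WT naïve libraries. In WT IOP replicates 1 and 4 they took 1.99 and 2.19%, against 3.08 and 3.36% in replicates 2 and 3. Transcripts of 13 rod photoreceptor genes moved the other way, with 3.21, 3.43 and 3.81% in KO naïve replicates 1, 2 and 4 and 1.21% in replicate 3. Cx3cr1 itself stood at 952 to 1233 normalized counts in KO IOP libraries and at 26836 to 54612 in WT IOP libraries. The other 11 microglial markers took 3.06 to 3.92% and 1.99 to 3.36% of those libraries. Cx3cr1 was at 9417 to 26283 in KO naïve and 12869 to 46130 in KO ONC libraries, so KO IOP stood apart from these as well. In comparisons with KO IOP libraries, condition or genotype cannot be told apart from this difference in Cx3cr1, whose cause was not tested. Spp1 ranged from 6.78 to 350 normalized counts in KO naïve, 9.28 to 811 in KO IOP and 15.0 to 6811 in KO ONC libraries, and from 334 to 1518, 1343 to 2772 and 14557 to 22906 in the WT groups. Spp1 reads were thus present in KO libraries, and the naïve ranges overlapped.

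Lymphocytes, border macrophages and endothelium also carry class I RNA, and their markers were scarce. The 12 T cell and natural killer cell markers together took 0.000424 to 0.00266% of a library. Among them Cd3e was at 0 to 57.7 normalized counts, Ncr1 at 0 to 36.3, Nkg7 at 0 to 107, Cd8a at 17.8 to 77.8 and Cd4 at 10.4 to 471. The highest Cd3e and Nkg7 values were both in WT ONC. There the 12 markers took 0.00157% in replicate 1 and 0.000424 and 0.000769% in replicates 2 and 3. Replicate 1 was the highest WT ONC library for all members but H2-D1, Tap2 and Nlrc5, and a link was not tested. The 10 markers of border macrophages and monocytes took 0.0547 to 0.225% in naïve and IOP libraries, 0.0109 to 0.0259% in WT ONC and 0.0278 to 0.0955% in KO ONC. Ncr1 was at 0 in all KO ONC libraries. The 10 markers of endothelium took 0.00432 to 0.0645%. In these bulk libraries fewer microglia and less RNA per microglial cell cannot be told apart.

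Of the members, 7 lie in the MHC on chromosome 17 of GRCm38 (GENCODE M21), between 33915899, where Tapbp starts, and 37274484, where H2-M3 ends. B2m lies on chromosome 2 (122147686 to 122153083) and Nlrc5 on chromosome 8 (94434356 to 94527272). All are protein-coding. H2-K1 and H2-D1 are close paralogs of each other and of the H2-Q and H2-T genes, and how shared reads were split between such copies is not given in the sources used here, so their single values are less certain than those of B2m, Tap1, Tap2, Tapbp and Nlrc5.

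Promoter windows are shown because the members moved together in these libraries. RefSeq windows (GRCm38.p6, 250 bases before to 50 after the start) were held for 7 of the 9, and none for Tap2 and Nlrc5. H2-K1 has 2 entries, of which the one with its start furthest downstream was taken. The 4 printed are the 250 bases before the start of both classical heavy chains, of the light chain and of the transporter subunit with the larger rise after ONC. Each is written 5′ to 3′ on the strand of the gene, with capitals for matches to the searched motifs on either strand.
H2-K1, chr17:34000334-34000583, minus strand: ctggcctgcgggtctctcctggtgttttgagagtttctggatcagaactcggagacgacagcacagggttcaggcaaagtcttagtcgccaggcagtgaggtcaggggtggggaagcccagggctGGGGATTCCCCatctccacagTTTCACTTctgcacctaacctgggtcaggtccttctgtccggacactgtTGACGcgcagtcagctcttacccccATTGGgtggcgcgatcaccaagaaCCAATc
H2-D1, chr17:35262844-35263093, plus strand: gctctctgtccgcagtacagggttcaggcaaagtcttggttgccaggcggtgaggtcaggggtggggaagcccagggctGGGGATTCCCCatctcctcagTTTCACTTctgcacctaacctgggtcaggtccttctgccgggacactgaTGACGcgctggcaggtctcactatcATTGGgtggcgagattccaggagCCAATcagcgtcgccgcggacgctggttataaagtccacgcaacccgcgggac
B2m, chr2:122147437-122147686, plus strand: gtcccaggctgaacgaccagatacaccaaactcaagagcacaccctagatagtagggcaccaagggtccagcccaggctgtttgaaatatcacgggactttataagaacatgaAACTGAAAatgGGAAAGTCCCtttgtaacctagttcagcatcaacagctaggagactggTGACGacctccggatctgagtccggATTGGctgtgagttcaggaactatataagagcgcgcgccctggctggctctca
Tap1, chr17:34187306-34187555, plus strand: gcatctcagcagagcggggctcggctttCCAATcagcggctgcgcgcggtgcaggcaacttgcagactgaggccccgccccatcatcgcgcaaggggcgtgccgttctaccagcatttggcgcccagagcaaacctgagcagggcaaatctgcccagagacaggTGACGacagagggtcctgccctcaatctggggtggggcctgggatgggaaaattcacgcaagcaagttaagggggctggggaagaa

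The motifs were the core of the interferon regulatory factor (IRF) site AANNGAAA, the GAS element TTCNNNGAA bound by STATs, the X2-box core TGACG, the Y-box core CCAAT and the κB consensus. The heavy chains H2-K1 and H2-D1 held the same array: a κB match, which reads on both strands and at 2 overlapping offsets, an IRF core, an X2-box core and 2 Y-box cores. It began 125 bases before the start in H2-K1 and 171 bases before it in H2-D1, and over 204 aligned bases the printed windows were identical at 82.8%. B2m held the IRF core 137 bases before the start, the κB match 126 before, the X2-box core 78 before and a Y-box core 53 before, with another X2-box match 45 bases after the start. Tap1 held an X2-box core and a Y-box core and none of the others.

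Over the 7 windows the Y-box core was found in 7, the IRF core in 5, the X2-box core in 5, the κB consensus in 4 and the GAS element in 1. These motifs were held by 37.4, 23.9, 20.8, 4.51 and 8.30% of all 32851 windows. Tapbp held 2 Y-box cores alone, and H2-T23 held 2 IRF cores and a Y-box core. In H2-M3, the member with the GAS match, a Y-box match overlapped the κB match. A match describes the letters in a window and is not evidence that a factor binds there.

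**Figure D1:**
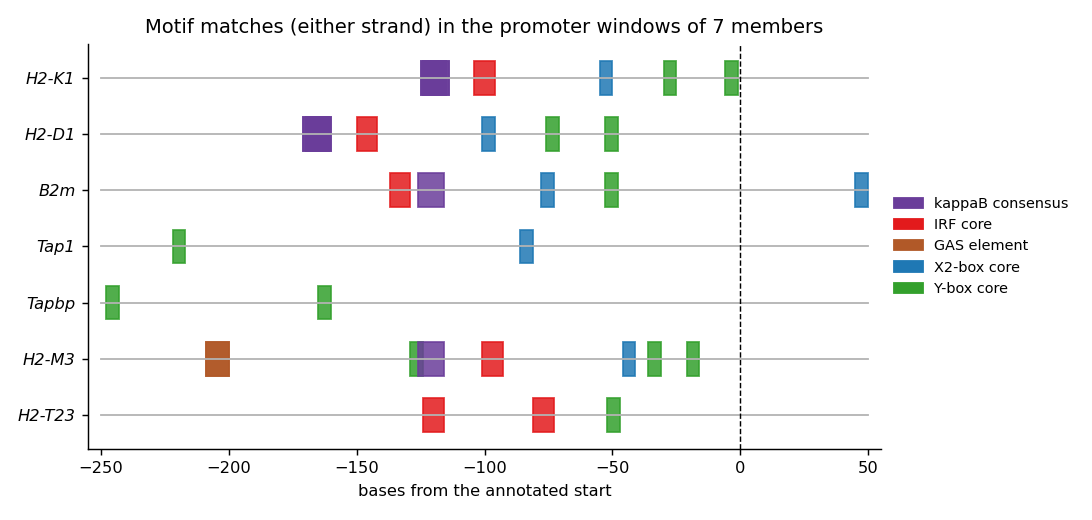
Positions of motif matches (coloured boxes, either strand) in the RefSeq promoter windows of 7 members, on an axis of bases from the annotated start (dashed line at 0). H2-K1 and H2-D1 show the same array of κB, IRF, X2-box and Y-box matches at different distances from the start, and Tapbp shows Y-box matches alone.

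Levels of different genes were compared as normalized counts per kilobase of merged exon. On this scale the order of the 9 group means was the same in all 6 groups: B2m, H2-D1, H2-K1, Tapbp, H2-T23, H2-M3, Tap2, Tap1 and Nlrc5. B2m had a median over the 23 libraries of 52805 per kb, H2-D1 27422 and H2-K1 5389. Tapbp followed with 4205, H2-T23 with 2218, H2-M3 with 1260, Tap2 with 1022, Tap1 with 449 and Nlrc5 with 51.1 per kb. Most neighbours were well separated: B2m stood above H2-D1, H2-D1 above H2-K1, H2-T23 above H2-M3, Tap2 above Tap1 and Tap1 above Nlrc5 in 23 of 23 libraries, and Tapbp above H2-T23 in 22. H2-K1 exceeded Tapbp in 16 libraries and H2-M3 exceeded Tap2 in 19, so the order within these 2 pairs of neighbours varied between libraries. B2m, H2-D1 and H2-K1 were thus measured far above the transporter and the transactivator, while the nonclassical chain H2-M3 was near Tap2.

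**Figure D2:**
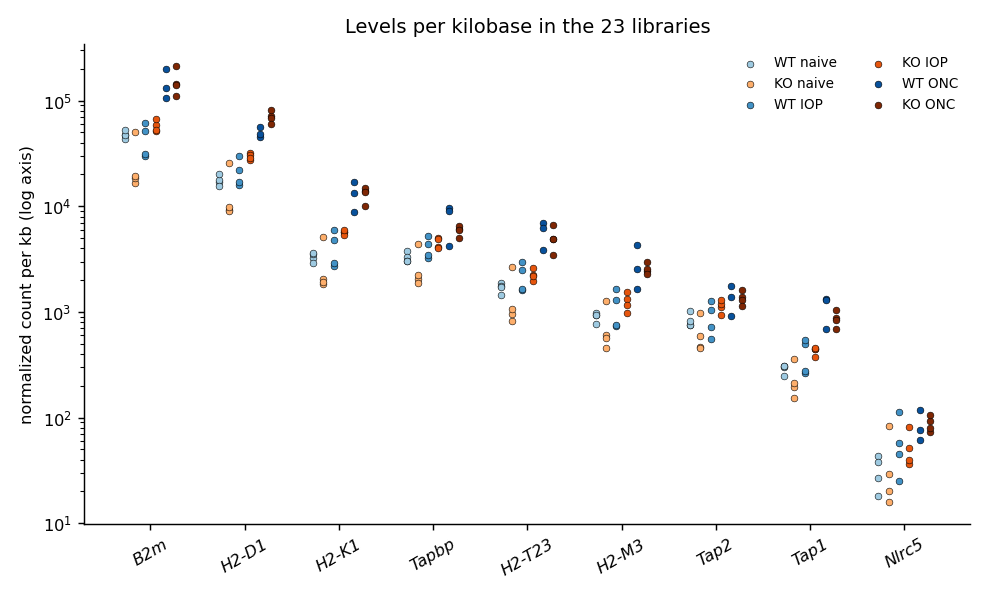
Normalized counts per kilobase of merged exon (log axis) of the 9 members in each of the 23 libraries (points), coloured by group, with genes ordered by their median. B2m and H2-D1 lie above the other members in every library and Nlrc5 lies below, and for H2-K1, H2-D1, B2m, Tap1, H2-M3 and H2-T23 the 7 ONC libraries lie above all others.

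Together the 9 members took 0.431 to 0.504% of a library in WT naïve, 0.246 to 0.597% in KO naïve, 0.407 to 0.693% in WT IOP and 0.635 to 0.683% in KO IOP. After ONC they took 1.09 to 1.14% in WT and 1.18 to 1.59% in KO. Both ONC groups therefore lay above every naïve and IOP library.

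The classical heavy chain H2-K1, which binds the peptide and is read by CD8+ T cells, was at 9430, 10283, 8540 and 10732 normalized counts in WT naïve replicates 1 to 4 and at 5432, 5976, 14970 and 5685 in KO naïve. After IOP elevation it was at 8016, 17443, 14076 and 8604 in WT and 16632, 16687, 15834 and 17335 in KO. After ONC it was at 49359, 25744 and 39328 in WT and 40859, 44037, 39737 and 29377 in KO. The ONC libraries lay above all others in both genotypes, KO naïve replicate 3 lay apart from its group, and the KO IOP libraries were the tightest group.

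H2-D1, the second classical heavy chain, was at 43848, 46214, 40473 and 51808 in WT naïve and 24031, 23157, 66415 and 25554 in KO naïve libraries. IOP libraries held 40583, 76880, 56814 and 43824 in WT and 83045, 70721, 79537 and 73559 in KO. ONC libraries held 117939, 125125 and 145034 in WT and 186026, 211484, 176653 and 153411 in KO. Here the 2 ONC groups did not overlap, since the highest WT ONC library was below the lowest KO ONC library.

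B2m, the light chain that every class I heavy chain needs to fold, was at 40497, 37340, 40409 and 45421 in WT naïve and 14393, 15975, 43461 and 16516 in KO naïve libraries. It was at 25749, 52676, 44436 and 27097 in WT IOP and 43970, 50359, 57915 and 45412 in KO IOP, and at 172798, 91177 and 114144 in WT ONC and 124832, 183765, 121890 and 94182 in KO ONC. KO naïve replicates 1, 2 and 4 and WT IOP replicates 1 and 4 were the 5 lowest libraries of B2m, and they are also those with the lowest share of microglial markers.

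**Figure D3:**
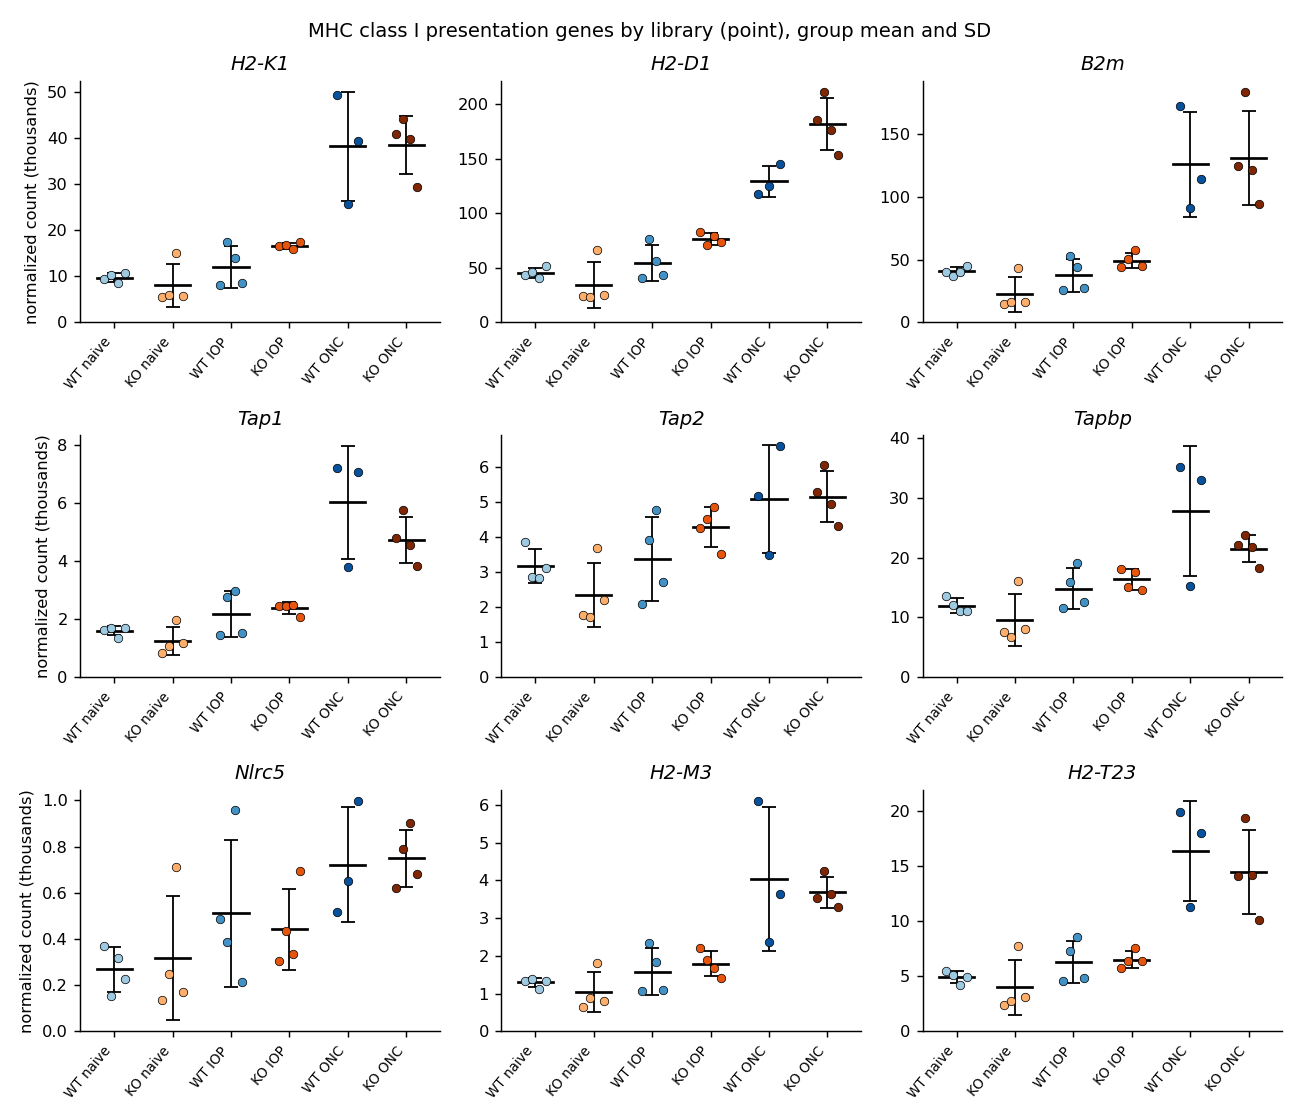
Normalized counts in units of 1000 (linear axes from 0) of each member in every library (points) by group, with the group mean (long line) and SD (error bar); n = 4 libraries a group and 3 in WT ONC. The ONC groups are highest for every member, KO naïve replicate 3 sits above the other 3 KO naïve libraries, and WT IOP libraries fall into a higher and a lower pair for most members.

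Tap1, a subunit of the peptide transporter, was at 1632, 1691, 1359 and 1684 in WT naïve and 840, 1068, 1951 and 1163 in KO naïve libraries. It was at 1450, 2749, 2975 and 1508 in WT IOP, 2463, 2458, 2485 and 2050 in KO IOP, 7202, 3774 and 7083 in WT ONC and 4777, 5741, 4560 and 3814 in KO ONC. All ONC libraries were above all naïve libraries, with WT ONC replicate 2 the lowest of the ONC libraries.

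Tap2, the partner subunit, was at 3864, 2856, 2830 and 3115 in WT naïve and 1760, 1719, 3697 and 2215 in KO naïve libraries. Values after IOP elevation were 2082, 3932, 4781 and 2718 in WT and 4256, 4528, 4860 and 3519 in KO, and after ONC 5190, 3488 and 6600 in WT and 5288, 6065, 4957 and 4311 in KO. WT ONC replicate 2 was inside the range of WT naïve libraries. The 2 subunits did not move by the same amount: the ratio of Tap1 to Tap2 counts was 0.422 to 0.621 in naïve libraries and 0.885 to 1.39 in ONC libraries.

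Tapbp encodes tapasin, which bridges TAP and the empty heavy chain. It was at 13617, 12129, 11108 and 11075 in WT naïve, 7464, 6771, 16011 and 8045 in KO naïve, 11634, 15916, 19115 and 12638 in WT IOP and 18107, 15045, 17656 and 14648 in KO IOP libraries. After ONC it was at 35221, 15257 and 33095 in WT and 22132, 23761, 21817 and 18318 in KO. The WT ONC values were split, with replicate 2 between WT naïve libraries and KO naïve replicate 3 and the other 2 replicates above all KO ONC libraries.

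Nlrc5, the transactivator of class I genes, was the least abundant member, with the widest spread within each naïve and IOP group. It was at 371, 155, 319 and 228 in WT naïve, 134, 248, 712 and 173 in KO naïve, 486, 386, 957 and 214 in WT IOP and 306, 434, 334 and 694 in KO IOP libraries. ONC libraries held 518, 650 and 998 in WT and 619, 791, 903 and 682 in KO. Within KO naïve the highest library was 5.32 times the lowest, and the WT IOP libraries spanned 4.46 times.

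H2-M3, a nonclassical heavy chain known for presenting N-formylated peptides, was at 1342, 1390, 1113 and 1341 in WT naïve, 657, 873, 1811 and 818 in KO naïve, 1064, 2345, 1847 and 1093 in WT IOP and 2199, 1897, 1685 and 1418 in KO IOP libraries. After ONC it was at 6119, 2362 and 3653 in WT and 3544, 4257, 3635 and 3295 in KO. H2-T23 encodes Qa-1, a ligand of the CD94-NKG2A receptor, and was at 5486, 5072, 4208 and 4960 in WT naïve, 2377, 2777, 7714 and 3102 in KO naïve, 4611, 7267, 8512 and 4811 in WT IOP and 5729, 6407, 7577 and 6343 in KO IOP libraries. Its ONC values were 19914, 11265 and 17939 in WT and 14039, 19349, 14171 and 10067 in KO. For both genes the lowest ONC library lay above the highest naïve library of either genotype.

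The first comparison asks how the class I genes of microglia differ between crushed and naïve retinas. In WT microglia 8 of the 9 members were higher after ONC and 0 were lower. A gene was called changed when limma's moderated test on log2(normalized count + 1) gave a Benjamini-Hochberg adjusted p under 0.05 over all genes tested and an absolute log2 fold change over 0.58. Of all genes tested 18.1% were called in this comparison. The median log2 fold change was 1.54 over the members and -0.10 over all genes tested. The groups did not overlap for the same 8 members, against 26.4% of all genes tested.

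In WT, H2-K1 rose by 1.92 ± 0.31 (adjusted p = 0.000171) on the log2 scale (estimate ± SE) after ONC. H2-D1 rose by 1.51 ± 0.29 (adjusted p = 0.00112) and B2m by 1.57 ± 0.34 (adjusted p = 0.00251). The transporter subunit Tap1 rose by 1.86 ± 0.28 (adjusted p = 9.95e-05), while its partner Tap2 was at 0.65 ± 0.28 (adjusted p = 0.102) and did not pass. Tapbp rose by 1.13 ± 0.28 (adjusted p = 0.00692) and Nlrc5 by 1.45 ± 0.49 (adjusted p = 0.0449). Among the nonclassical chains, H2-M3 rose by 1.54 ± 0.32 (adjusted p = 0.0022) and H2-T23 by 1.70 ± 0.32 (adjusted p = 0.000743). The call on Nlrc5 was lost without WT naïve replicate 2, 3 or 4 and without any WT ONC replicate, and that on Tapbp without WT ONC replicate 1 and with the compared groups alone. Nlrc5 was also not called with edgeR, no filter, upper-quartile, quantile or marker scaling, or a rod or Y chromosome covariate. Without WT ONC replicate 2, Tap2 was called as well, at 0.90. The other 6 called members passed in all 24 settings tried. WT ONC replicate 2 was the lowest of the 3 WT ONC libraries for 7 members (all but H2-D1 and Nlrc5), and it held 1.97% of rod transcripts against 0.529 and 0.628% in replicates 1 and 3.

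In KO microglia all 9 members were higher after ONC than in naïve retinas, where 23.6% of all genes tested were called. The median log2 fold change was 1.97 over the members and -0.12 over all genes. Groups did not overlap for 8 members (all but Nlrc5), against 26.5% of all genes. H2-K1 rose by 2.39 ± 0.28 (adjusted p = 8.81e-06), H2-D1 by 2.54 ± 0.27 (adjusted p = 3.26e-06) and B2m by 2.66 ± 0.31 (adjusted p = 7.71e-06). Tap1 rose by 1.97 ± 0.26 (adjusted p = 2.71e-05), Tap2 by 1.20 ± 0.26 (adjusted p = 0.00181) and Tapbp by 1.25 ± 0.25 (adjusted p = 0.00125). Nlrc5 rose by 1.55 ± 0.46 (adjusted p = 0.0167), H2-M3 by 1.93 ± 0.30 (adjusted p = 0.000115) and H2-T23 by 1.98 ± 0.29 (adjusted p = 7.43e-05). The call on Nlrc5 was lost with edgeR and without KO naïve replicate 1 or 4, and those on Tap2, Tapbp and Nlrc5 with a rod or microglial covariate.

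The size of these KO changes varied with the naïve libraries compared. With KO naïve replicates 1, 2 and 4 left out, a choice made after seeing the data, replicate 3 was the only KO naïve library and is assumed to vary like the other groups. The log2 fold changes over the 9 members then ran from 0.06 for Nlrc5 to 1.55 for B2m, with H2-D1 at 1.44 and H2-K1 at 1.35. Calls of that fit cannot show what the main calls rest on, since the group then holds replicate 3 alone. All 4 KO ONC libraries were still above KO naïve replicate 3 for each of the 9 members but Nlrc5.

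**Figure D4:**
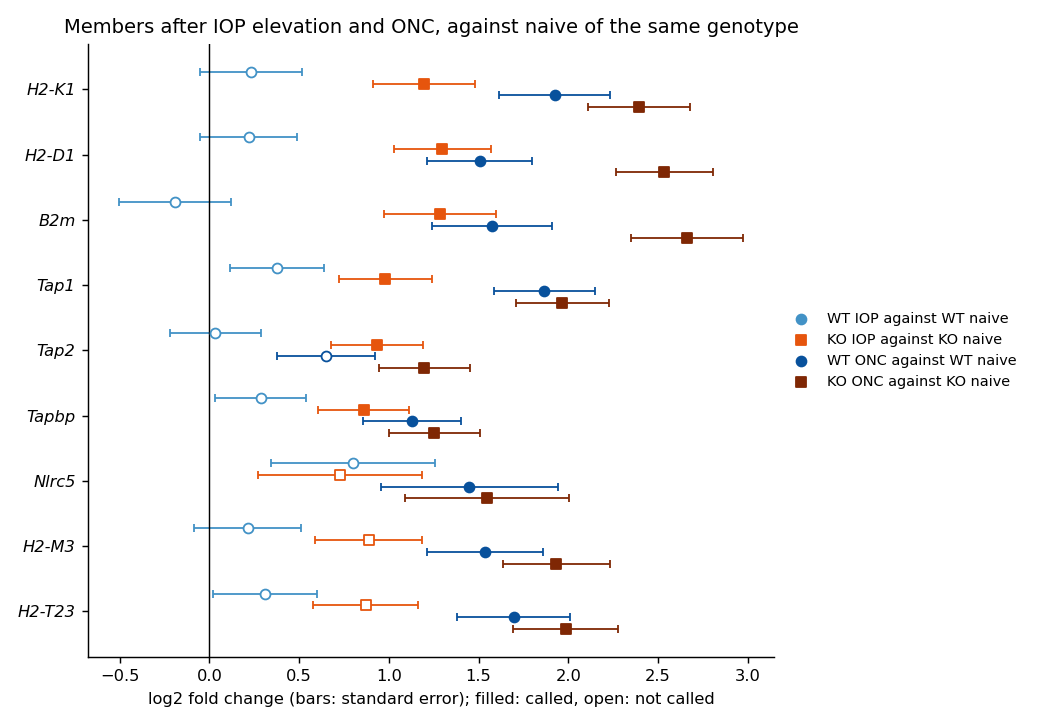
Log2 fold changes (x axis, limma estimate with its standard error) of the 9 members (y axis) in 4 comparisons with naïve retinas of the same genotype; filled symbols were called and open ones were not. After ONC all members but Tap2 in WT are filled, after IOP elevation 6 are filled in KO and 0 in WT.

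The second comparison asks the same of raised pressure. In WT microglia 0 of 9 members were called after IOP elevation (limma), where 1.56% of all genes tested were, and 0 members had an unadjusted p under 0.05. Both edgeR and DESeq2 on whole reads also called 0. The log2 fold changes ran from -0.19 for B2m to 0.80 for Nlrc5, with standard errors of 0.25 to 0.46, and the groups overlapped for all 9 members, against 13.8% of all genes without overlap. WT IOP replicates 2 and 3 were above replicates 1 and 4 for H2-K1, H2-D1, B2m, Tap1, Tap2, Tapbp, H2-M3 and H2-T23. This split is that of the microglial markers, given above. Lens transcripts (12 genes) took 0.128 to 0.948% of the WT IOP libraries and at most 0.0188% of any library of another group, and their part in the result was not tested. With the mean of the 12 microglial markers as a covariate, 3 members were called, namely Tap1, Tapbp and H2-T23, at log2 fold changes of 0.59 to 0.69.

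In KO microglia 6 of 9 members were called higher after IOP elevation and 0 lower, where 7.88% of all genes tested were called. The median log2 fold change was 0.93 over the members and -0.12 over all genes. H2-K1 rose by 1.20 ± 0.28 (adjusted p = 0.0214), H2-D1 by 1.30 ± 0.27 (adjusted p = 0.0136) and B2m by 1.29 ± 0.31 (adjusted p = 0.0224). Tap1 rose by 0.98 ± 0.26 (adjusted p = 0.0298), Tap2 by 0.93 ± 0.26 (adjusted p = 0.0327) and Tapbp by 0.86 ± 0.25 (adjusted p = 0.0427). H2-M3 was at 0.89 ± 0.30 (adjusted p = 0.0663) and H2-T23 at 0.87 ± 0.29 (adjusted p = 0.0653), and neither passed, nor did Nlrc5 at 0.73. The groups did not overlap for 4 members, H2-K1, H2-D1, B2m and Tap1, against 11.7% of all genes.

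These KO calls also varied with the naïve libraries compared. With KO naïve replicates 1, 2 and 4 left out, the 6 members had log2 fold changes of 0.03 for Tapbp to 0.27 for Tap1. Calls of that fit cannot show what the main calls rest on, since the group then holds replicate 3 alone. Without KO naïve replicate 3 all 9 were called, and without replicate 1, 2 or 4 of KO naïve 0 were. The count was 3 without KO IOP replicate 1 and 2 without replicate 2 or 3. A rod covariate or a covariate for the 11 microglial markers other than Cx3cr1 left 0 calls, and edgeR called 2, H2-K1 and H2-D1.

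The third comparison asks whether loss of Spp1 changes class I genes within a condition. It called 0 of the 9 members in naïve, IOP and ONC retinas, where 0.409, 2.11 and 0.0877% of all genes tested were called, and edgeR and DESeq2 called 0 as well. Groups did not overlap for 0 members in naïve and IOP retinas and for 1, H2-D1, after ONC, against 9.60, 13 and 6.32% of all genes. An unadjusted p under 0.05 was found for 1 member in naïve retinas and 0 in the others.

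In naïve retinas all 9 estimates were lower in KO, from -1.02 for B2m to -0.01 for Nlrc5, with a median of -0.43 against 0.03 over all genes. B2m averaged 40917 ± 3342 normalized counts (SD, n = 4) in WT and 22586 ± 13945 (SD, n = 4) in KO, a log2 difference of -1.02 ± 0.31 (adjusted p = 0.105) with limma. Its large SD in KO came from replicate 3, whose value of 43461 fell inside the WT range. Without replicate 3, H2-K1, H2-D1, B2m and H2-T23 were called lower in KO, at -1.39 to -0.77. When every library was instead scaled to its 11 microglial markers other than Cx3cr1, 8 of 9 estimates turned to higher in KO (median 0.46), relative to an all-gene median that this scaling moved from 0.03 to 0.90, and 0 were called.

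After IOP elevation 8 of 9 estimates were higher in KO, from -0.08 for Nlrc5 to 0.54 for H2-K1, with standard errors of 0.25 to 0.46. Scaled to the microglial markers, 7 of the 9 were lower in KO, with the all-gene median at -0.48. After ONC 5 of 9 were higher in KO, and this count was 5 under that scaling as well. H2-D1, at 129366 ± 14037 (SD, n = 3) in WT ONC and 181893 ± 24024 (SD, n = 4) in KO ONC, had a log2 difference of 0.49 ± 0.29 (adjusted p = 0.644). The ranges were separate, and the difference did not pass the test.

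The response to each injury was then compared between genotypes by an interaction term, which shares its naïve libraries with the comparisons above. For IOP elevation 1 of 9 members, B2m, was called, against 8.75% of all genes tested, so this count is near the background. B2m had a log2 difference of responses of 1.48 ± 0.44 (adjusted p = 0.0396), with a change of -0.19 in WT and 1.29 in KO. H2-D1 at 1.08 ± 0.38 (adjusted p = 0.0781), H2-K1 at 0.96 ± 0.40 (adjusted p = 0.13) and Tap2 at 0.90 ± 0.36 (adjusted p = 0.116) had an unadjusted p under 0.05 and did not pass. The B2m call was lost with edgeR, with no filter, with the rod, microglial or Y chromosome covariate, and on leaving out any 1 of 13 of the 16 naïve and IOP libraries, the exceptions being KO naïve replicate 3 and WT IOP replicates 2 and 3. Scaled to the microglial markers, the members' median was -0.68 and Tap1, Tapbp and H2-T23 were called in the other direction, with the all-gene median at -1.40.

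For ONC 0 of 9 members were called by limma, edgeR or DESeq2, where 0.0702% of all genes tested were called by limma, and 2 had an unadjusted p under 0.05. These were H2-D1 at 1.03 ± 0.40 (adjusted p = 0.287) and B2m at 1.08 ± 0.46 (adjusted p = 0.336). Both were called without KO naïve replicate 3, at 1.39 for H2-D1 and 1.45 for B2m.

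**Figure D5:**
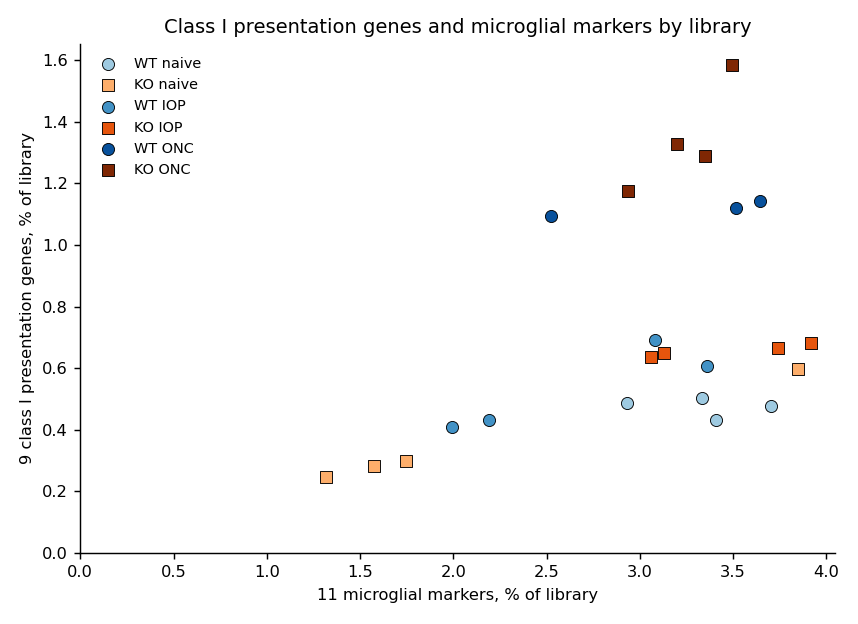
Share of each library taken by the 9 members (y axis, %) against the share taken by 11 microglial markers without Cx3cr1 (x axis, %); each point is 1 of 23 libraries and WT are circles, KO squares. The 7 ONC libraries lie at 1.09% or more, at marker shares of 2.53 to 3.65%, and the naïve and IOP libraries reach at most 0.693%, with the lowest values in KO naïve replicates 1, 2 and 4, where the marker share is at most 1.74%.

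The plot of the members' share against the microglial markers shows both patterns at once. The 3 KO naïve libraries with marker shares (11 genes) of 1.32, 1.58 and 1.74% had member shares of 0.246, 0.281 and 0.297%, and replicate 3, at 3.85%, had 0.597%. The ONC libraries held a higher member share at marker shares that the naïve and IOP libraries also reached. With each library scaled to these 11 markers, 7 of 9 members were still called higher after ONC in WT and 6 of 9 in KO. H2-K1 was then higher by 1.79 ± 0.17 (adjusted p = 2.89e-07) in WT and 1.37 ± 0.15 (adjusted p = 7.53e-06) in KO, and B2m by 1.44 ± 0.15 (adjusted p = 1.82e-06) and 1.63 ± 0.14 (adjusted p = 1.69e-07). After IOP elevation in KO, 0 were called on that scale, with estimates of -0.26 to 0.31. The scaling moved the all-gene median to -0.22 in the WT and -1.12 in the KO comparison after ONC, and to -1.09 in KO after IOP elevation. Whether the share of microglial RNA accounts for any difference between groups was not tested.

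Of 20 genes that make and load peptides, 7 rose in WT and 11 in KO after ONC, where 18.1 and 23.6% of all genes tested were called. In KO 4 rose after IOP elevation, where 7.88% of all genes were called, and 0 fell in any of these comparisons. How the calls of the lists change under the alternatives was not tested. Over all genes 1347 were called in KO after IOP elevation in the main fit. This count was 7 with the 11-marker covariate, 8 with the Y chromosome covariate, 6 with the rod covariate and 5 with the compared groups alone. Other alternatives kept more: 286 with the covariate of 12 microglial markers, 559 with edgeR, 1438 with the replicate block, 1722 with quantile normalization and 1901 with DESeq2. Leaving out KO naïve replicates 1, 2 and 4 leaves 1 library in that group, so lost calls cannot show what the list calls rest on. That holds for KO after ONC and for the interaction with IOP elevation as well. The median log2 fold changes of the 20 genes were 0.64 in WT after ONC, 0.70 in KO after ONC and 0.59 in KO after IOP elevation. Beside them the medians over all genes were -0.10, -0.12 and -0.12. The immunoproteasome subunits Psmb8 and Psmb9 rose by 1.62 ± 0.34 and 1.72 ± 0.31 in WT after ONC, by 2.03 ± 0.32 and 1.93 ± 0.29 in KO after ONC, and by 1.13 ± 0.32 and 1.05 ± 0.29 in KO after IOP elevation (log2, estimate ± SE). Psmb9 is the neighbour of Tap1, and both are read from the promoter region whose window is shown above for Tap1. The proteasome activator subunits Psme1 and Psme2 rose by 1.38 ± 0.22 and 1.67 ± 0.32 in WT and by 1.89 ± 0.20 and 1.55 ± 0.29 in KO after ONC. Psme1 and the immunoproteasome subunit Psmb10 also rose in KO after IOP elevation, by 0.78 ± 0.20 and 0.83 ± 0.25. In WT after IOP elevation and between genotypes 0 of the 20 were called.

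Other class I heavy chains and class I-like molecules were listed with 22 genes, of which 14 were tested, 5 were below the filter and 3 had no match. After ONC 5 of the 14 rose in WT and 10 in KO, and 0 fell, beside 18.1 and 23.6% of all genes called. The medians were 0.78 and 1.54, beside -0.10 and -0.12 over all genes. H2-Q7 rose by 3.42 ± 0.38 in WT and 3.46 ± 0.35 in KO, H2-Q6 by 2.65 ± 0.38 and 3.02 ± 0.36, and H2-T22 by 2.54 ± 0.34 and 2.44 ± 0.32. H2-Q7, a nonclassical chain of the Qa-2 group, went from 620 to 804 normalized counts in WT naïve to 4970 to 13857 in WT ONC libraries. H2-T10 was called in WT at 3.84 ± 1.25, from 0 to 24 normalized counts in WT naïve and 43.7 to 271 in WT ONC libraries. H2-Q5 rose in KO by 2.58 ± 0.35. In WT it was at 63.0 to 124 normalized counts in naïve and 350 to 466 in ONC libraries, so it was higher there too. These genes are close copies of each other and share the uncertainty of H2-K1 and H2-D1. After IOP elevation 0 of the 14 were called in either genotype.

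Of 27 regulators of the class I genes, including interferon regulatory factors, STATs and interferon receptors, 7 rose in WT and 13 in KO after ONC, with medians of 0.46 and 0.74. All genes tested were called at 18.1 and 23.6% in these comparisons, so that the WT count is near the background. Irf7, which drives type I interferon genes, rose by 3.22 ± 0.29 in WT and 3.46 ± 0.27 in KO. Socs1, a feedback inhibitor of cytokine signals, was called in WT, where it was at 0 in 3 of 4 naïve libraries and at 61.7 to 172 normalized counts after ONC. Rfxap, a subunit of the factor that binds the X box, was called in WT at 4.29 ± 1.18, from 15.2 to 35.1 normalized counts to 362 to 708, while KO naïve libraries ranged from 32.9 to 746. In KO after ONC Ifngr2 and Irf8 also rose, by 2.59 ± 0.81 and 1.64 ± 0.30. After IOP elevation 2 rose in WT, where 1.56% of all genes tested were called, while 0 of the 9 members were called. Irf9, a subunit of the factor that type I interferons activate, was 1 of the 2, at 0.93 ± 0.19. In KO 6 rose after IOP elevation, where 7.88% of all genes tested were called. The largest rises were those of Irf7 at 1.23 ± 0.27, Irf8 at 1.08 ± 0.30, Ifnar2 at 0.99 ± 0.29 and Ifngr1 at 0.83 ± 0.24. KO naïve replicate 3, at 16163 normalized counts of Irf8, lay inside the KO IOP range of 13801 to 16298, and the other 3 KO naïve libraries were at 4824 to 6214. Between genotypes 1 was called, Rfx5, higher in KO IOP by 1.16 ± 0.31, where 2.11% of all genes tested were called. In the interaction with IOP elevation 1 of the 20 peptide-loading genes (Psme1) and 1 of the 14 other class I genes (Fcgrt) were called. Of the 27 regulators 3 were called (Irf8, Jak1 and Ifngr1), and all these responses were higher in KO. Of all genes tested 8.75% were called in this comparison, so these counts are near the background. In the interaction with ONC 0 genes of these lists were called.

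The members varied together. Over the 23 libraries the pairwise Pearson correlation of log2 values ran from 0.719, between Nlrc5 and H2-M3, to 0.982, between Tap1 and H2-T23, over 36 pairs. These libraries share their groups, so the correlations describe the group differences as much as the spread within groups. The 10 other genes whose pattern was most like the mean of the members' standardized values had correlations of 0.973 to 0.979. They were Pdcd1, Ctsz, Trex1, Ly6e, Cd68, Shisa5, Tlr2, Cxcl16, Grn and Psmb8, in falling order, and Psmb8 is the 1 of them on the peptide-loading list.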

How the data were processed

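RNA-seq libraries (23) of sorted GFP+ retinal cells were grouped by their labels into 6 groups. The deposited values are normalized counts, which the authors made by dividing read counts per gene by a DESeq2 size factor for each library, so the unit is a normalized signal and not raw counts. The labels name STAR and DESeq2, the study's methods name salmon and GRCm38, and which of them gave the table, and whether strand was used, is not given in the sources used here. Dividing by the step of each library returned whole reads for 100% of values (within 0.01 read), and edgeR 4.0.16 and DESeq2 1.42.0 were run on these reads as alternatives.

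Genes with at least 10 normalized counts in at least 3 libraries (17102 of 35825, of which 389 identifiers had no symbol) entered limma 3.58.1 (R 4.3.3) on log2(normalized count + 1), with 1 coefficient per group over all libraries, no covariate and empirical Bayes moderation. The fit was also run on simulated counts in which genes changed in WT ONC alone. They held no difference in cell composition between libraries, so that run does not bear on such differences. Fold changes on this scale understate changes of low genes. A gene was called past a log2 fold change of 0.58 in size with an adjusted p below 0.05 (Benjamini-Hochberg over all genes tested), and 9 comparisons were made, which share naïve libraries.

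The members and gene lists were chosen with earlier results of these data known. All 9 members are named with every library's value. Fold changes with p are given for called members, for those whose groups did not overlap and for those with an unadjusted p under 0.05, and up to 4 called genes with the largest change are named per other list, plus others singled out after their values were seen. Some genes of these lists are not reported here by name. Lengths are merged exons of GENCODE M21. Alternatives were other pseudocounts, filters, scalings, covariates (rod, microglial and Y chromosome genes) and fits, the replicate block, each library left out, and 4 added after seeing the data (the 11-marker covariate and scaling, WT IOP replicates 1 and 4 left out, KO naïve replicates 1, 2 and 4 left out). Replicate numbers did not pair the libraries (correlation of deviations from -0.253 to 0.230 over 55 pairs).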

Additional observations from a re-analysis of the deposited data

Results flagged for a closer look

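KO naïve replicate 3 lay far above the other 3 KO naïve libraries, by Dixon's criterion, for 5 of the 9 members. It held 14970 normalized counts of H2-K1, 66415 of H2-D1, 43461 of B2m, 16011 of Tapbp and 7714 of H2-T23. These 5 values are of 1 library and so are 1 observation, and the library also differed in the share of its reads on microglial markers (3.85% against 1.32 to 1.74%) and rod genes (1.21% against 3.21 to 3.81%).

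Tap1 in KO IOP replicate 4, at 2050 normalized counts, lay far below the other 3 KO IOP libraries, which were within 2458 to 2485. In all 6 of 45 sets of values stood apart in this way, and chance gives about 1 in 20.

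The response of B2m to IOP elevation differed between genotypes by the interaction term (1.48 on the log2 scale, limma adjusted p = 0.0396), with the exceptions given with that comparison.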

How the results depend on the processing

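Counts of members called are given here out of 9, beside 0, 0 and 0 for KO against WT (naïve, IOP, ONC), 0 and 8 for WT (IOP, ONC), 6 and 9 for KO (IOP, ONC), and 1 and 0 for the interactions (IOP, ONC). The replicate block, whose numbers do not pair the libraries, left all 9 counts as they were (0, 0, 0, 0, 8, 6, 9, 1 and 0). After IOP elevation in WT the count was 3 with either microglial covariate and 2 with scaling to 11 microglial markers. After IOP elevation in KO it was 3 with the microglial covariate and 2 with edgeR. It was 0 with the rod, Y chromosome or 11-marker covariate, the compared groups alone or the 11-marker scaling. Counts without KO naïve replicates 1, 2 and 4 are not given, since replicate 3 is then alone in its group. The IOP interaction count was 0 with no filter, with the rod, Y chromosome or either microglial covariate, with edgeR, and without WT IOP replicates 1 and 4. It was 3 (all lower) with the 11-marker scaling. That scaling also turned Tap1 (-0.0094), Tap2 (-0.056) and Tapbp (-0.13) after IOP elevation in KO. The cause was not tested.

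Leaving out 1 library at a time gave 0 to 4 for KO against WT in naïve retinas (4 without KO naïve replicate 3), 6 to 8 for WT ONC, 0 to 9 for KO IOP (5 without KO IOP replicate 4, the others given with that comparison), 8 to 9 for KO ONC, 0 to 5 for the IOP interaction (5 without KO naïve replicate 3, 2 without WT IOP replicate 2) and 0 to 2 for the ONC interaction (2 without KO naïve replicate 3). It gave 0 throughout for WT IOP and for KO against WT after IOP elevation and ONC. Of single log2 fold changes under the other alternatives, 317 kept direction and side of the threshold, 81 fell below it and 3 turned. Every member was above the floor of 3 reads in every library.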

Other observations

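The balance between light and heavy chains differed between groups of libraries. B2m counts per summed H2-K1 and H2-D1 counts were 0.661 to 0.824 in WT naïve and 0.489 to 0.548 in KO naïve libraries, so that KO naïve replicate 3, which had B2m inside the WT range, did not have the WT ratio. In IOP libraries the ratio was 0.517 to 0.627 in WT and 0.441 to 0.607 in KO, and in ONC libraries 0.604 to 1.03 and 0.515 to 0.719. The ratio was not tested.

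The 2 heavy chains kept closer to each other. H2-K1 per H2-D1 had group means of 0.211 to 0.233 in all groups but WT ONC, where it was 0.298 ± 0.109 (SD, n = 3) and ran from 0.206 to 0.419.

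All 20 peptide-loading genes had lower estimates in KO than in WT after ONC, with a median of -0.28 against 0.03 over all genes tested, but 0 were called by limma and 1 had an unadjusted p under 0.05. The WT ONC libraries were far apart. Psmb8 was at 29886, 8937 and 15750 in WT ONC replicates 1 to 3 and at 10487 to 14691 in KO ONC. Psme2 was at 16649, 3818 and 6754 in WT ONC and at 3971 to 5980 in KO ONC. The 20 estimates come from the same libraries and are not separate observations. In naïve retinas 19 of the 20 were lower in KO, with a median of -0.45, 0 called and 4 at an unadjusted p under 0.05.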
